A study of Mus musculus with 24 samples.

Results

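The genes described here are the 10 members of the AP-1 and early growth response families Fos, Fosb, Fosl1, Fosl2, Jun, Junb, Jund, Egr1, Egr3 and Atf3, of 19938 genes named on the arrays. They were found by their gene symbol in the platform annotation, and each had 1 probe set. All 10 were among the 15647 genes tested. AP-1 is a dimeric transcription factor. Its FOS proteins cannot bind DNA alone and pair with JUN proteins, which can also pair with each other, while ATF3 pairs with JUN or with itself. The EGR proteins are zinc-finger activators that recognise GC-rich sites. Most of these genes are immediate-early genes, which are switched on within minutes by growth factors, antigen receptor signals or stress through MAP kinases, without new protein synthesis. Their transcripts are short-lived. In B-cell progenitors EGR1 is known to act downstream of the pre-B-cell receptor.

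Messenger RNA of bone marrow B cells was measured on 24 1-colour arrays, 1 per mouse, and every mouse of every group had received 2 Gy of ionizing radiation. The groups were tumor-bearing marrow of 10 leukemic Pax5+/- mice, pro-B and pre-B cells of 7 preleukemic Pax5+/- mice, tumor-bearing marrow of 4 leukemic WT mice, and pro-B and pre-B cells of 3 preleukemic WT mice. Pax5+/- mice carry 1 functional allele of Pax5, the transcription factor that commits progenitors to the B lineage. All samples carry a label of 3 weeks of irradiation, leukemic ones included, and no age, sex or strain is given for the mice. Values are log2 signals, so a difference of 1 is a 2-fold change, and no level of one gene is set against that of another because their probes differ. Disease stage also goes with the kind of material, and in such bulk samples fewer cells of a type and less RNA per cell cannot be told apart.

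Cell-type markers moved with stage, and their part in the differences below was not tested. Of 11 B-lineage markers, 8 were lower in leukemic than in preleukemic Pax5+/- arrays and 7 in leukemic than in preleukemic WT arrays. Over all genes tested 35.1% were lower in Pax5+/- and 20.4% in WT mice. All 6 megakaryocyte and platelet markers and 8 of 10 stromal and endothelial markers were higher in leukemic arrays of both genotypes. In each genotype 1 stromal or endothelial marker was lower. Over all genes tested 27.8% were higher in Pax5+/- and 18.7% in WT mice. Monocyte and macrophage markers averaged 7.09 to 9.49 in leukemic and 6.13 to 6.40 in preleukemic Pax5+/- arrays, and 7.83 to 8.64 in leukemic and 6.35 to 7.49 in preleukemic WT arrays. The defining B-lineage gene Cd79a was well above the dim level on every array, its lowest value being 10.5. Of 14 granulocyte markers, 9 were higher and 0 lower in leukemic Pax5+/- arrays. In leukemic WT arrays 0 were higher and 0 lower. Preleukemic WT array 1 stood apart, with a granulocyte marker mean of 10.98, against 6.55 and 6.62 on the other preleukemic WT arrays. Leukemic WT array 2 also stood apart. Its B-lineage marker mean was 8.655, against 10.00 to 10.53 on the other leukemic WT arrays. Its T-cell and NK-cell marker mean was 8.38, against 5.97 to 6.23. Y-linked genes were high on 5 of 10 leukemic and 4 of 7 preleukemic Pax5+/- arrays. They were high on 0 of 4 leukemic and 3 of 3 preleukemic WT arrays. In WT mice the effects of stage and of sex cannot be told apart.

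Lower AP-1 and EGR signals in leukemia formed the main pattern. In Pax5+/- mice 7 of the 10 genes were lower in leukemic than in preleukemic arrays (Fos, Fosb, Jun, Junb, Jund, Egr1 and Egr3) and only Fosl2 was higher, in limma at an adjusted p under 0.05. By the same test 35.1% of all genes tested were lower and 27.8% higher. The members' median difference was -1.01 on the log2 scale, against -0.05 over all genes tested. In WT mice 3 members (Fos, Fosb and Jund) were lower and 0 higher, against 20.4% of all genes lower and 18.7% higher. No member was higher in WT at an unadjusted p under 0.05 either. Without preleukemic WT array 1, 6 members were lower in WT (Fos, Fosb, Jun, Junb, Jund and Egr3), and without array 2 only Jund was. With sex as a covariate, Fos (-1.35, adjusted p = 0.125) and Fosb (-1.94, adjusted p = 0.114) lost their WT calls and Egr3 gained one (-0.48, adjusted p = 0.0271). In WT mice Y-linked signal went fully with stage, so the sex term of this fit rested on Pax5+/- arrays only. The fit therefore cannot separate sex from stage in WT mice. The WT median over the members was -0.92, against -0.05 over all genes. These shares depend on scaling: with each array centred on its median, 3502 genes were lower and 5066 higher in leukemic Pax5+/- arrays, in place of 5485 and 4354. In WT the centred counts were 2177 and 3379, in place of 3191 and 2924. The members' stage differences kept their direction under centring and repeated quantile normalization in both genotypes, except for the uncalled Fosl1. Egr3 lost its Pax5+/- call under both, and Fos its WT call under centring. In group means both leukemic groups lay below both preleukemic groups for 9 members, all but Fosl2. The share of all genes tested with this order was not counted. The 9 include Fosl1, with differences of only -0.06 in Pax5+/- and -0.04 in WT mice, and Atf3, both uncalled in either genotype. Within a stage no genotype difference of a member passed the test.

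**Figure D1:**
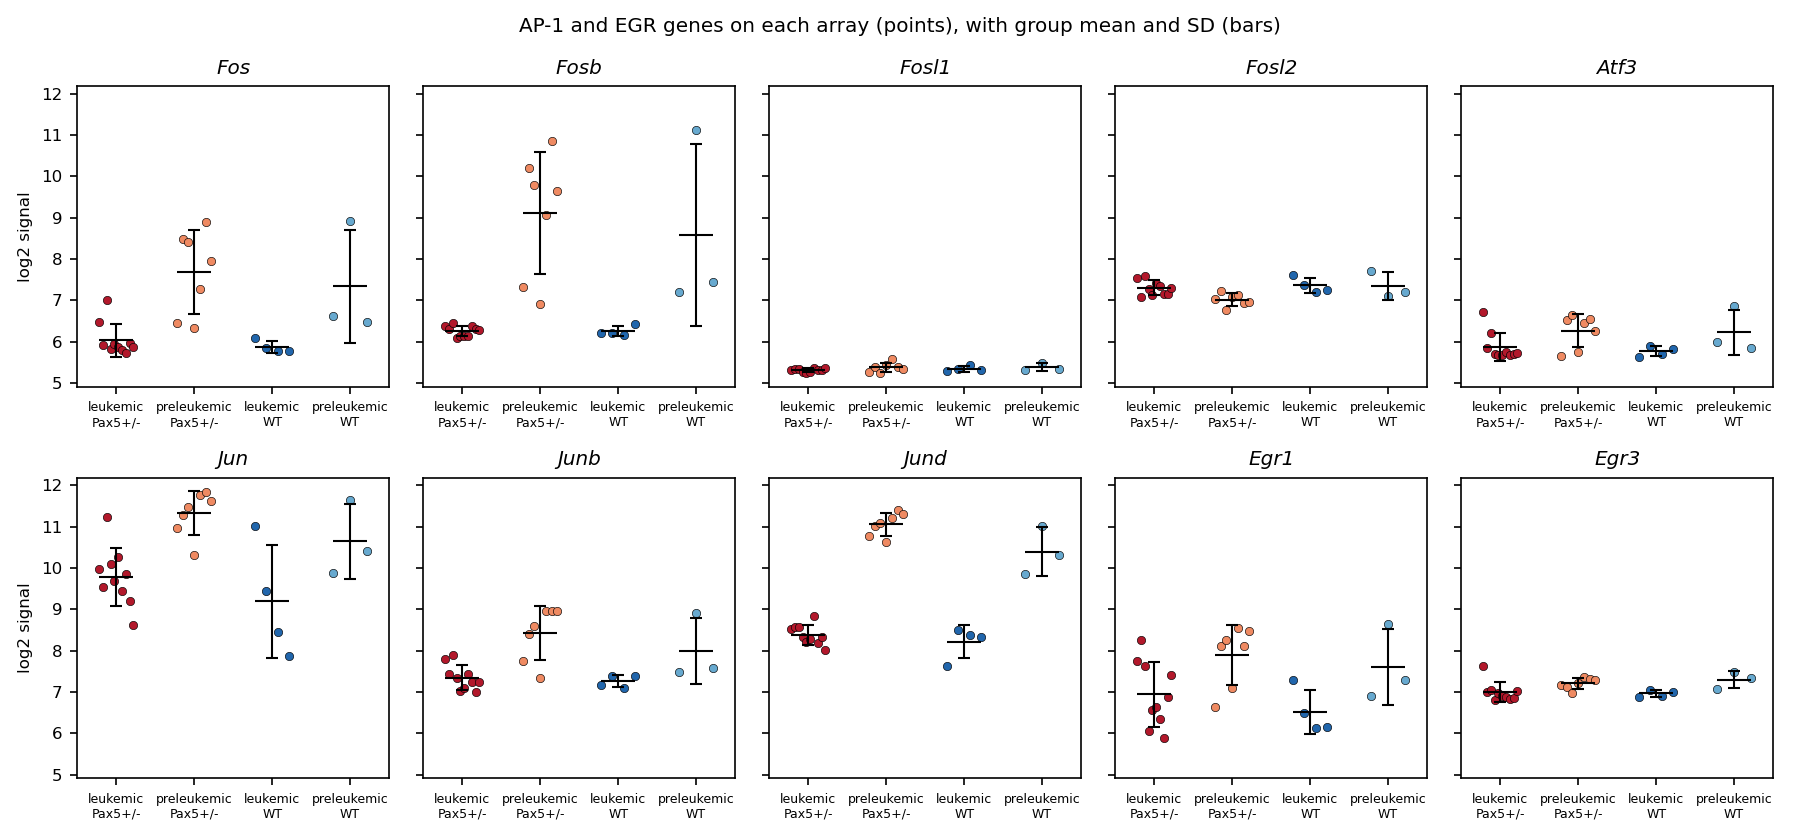
Log2 signal of each of the 10 genes (y axis) in the 4 groups (x axis). Points are arrays, horizontal lines are group means and bars are SDs. Jund separates leukemic from preleukemic arrays in both genotypes, whereas Fos and Fosb spread widely within the preleukemic groups and lie close together in the leukemic ones.

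Among the FOS proteins, Fosb showed the largest difference of the 10 members. Fosb ran from 6.09 to 6.46 with a median of 6.29 on the 10 leukemic Pax5+/- arrays, against 6.91 to 10.85 with a median of 9.65 on the 7 preleukemic Pax5+/- arrays. It was 6.21, 6.20, 6.17 and 6.43 in leukemic WT mice, against 7.20, 11.12 and 7.44 in preleukemic WT mice. Every leukemic array lay below every preleukemic array within its genotype, and the leukemic arrays of both genotypes lay close together. These leukemic Fosb values were near the leukemic array medians over all probe sets, 6.10 to 6.22. Whether they sat at background was not tested. The difference was -2.85 ± 0.50 (SE) in Pax5+/- mice, a 7.21-fold lower signal (adjusted p = 4.71e-05). In WT mice it was -2.33 ± 0.77 (SE), 5.04-fold lower (adjusted p = 0.0207). The WT value rested on preleukemic WT array 2, without which Fosb was 2.10-fold lower (adjusted p = 0.254).

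Fos, the founding member of the family, followed the same order of groups. Fos ran from 5.73 to 7.01 with a median of 5.90 in leukemic Pax5+/- mice, against 6.32 to 8.90 with a median of 7.95 in preleukemic Pax5+/- mice. It was 6.09, 5.84, 5.77 and 5.79 in leukemic WT mice, against 6.61, 8.91 and 6.49 in preleukemic WT mice. The groups overlapped in Pax5+/- mice, where 5 of 7 preleukemic arrays lay above all leukemic ones, and did not overlap in WT. The leukemic Fos medians, 5.90 in Pax5+/- and 5.81 in WT mice, lay below the leukemic array medians of 6.10 to 6.22. Whether these values sat at background was not tested. Fos was 3.13-fold lower in leukemic Pax5+/- arrays (log2 difference -1.65 ± 0.35 SE, adjusted p = 0.000418). It was 2.77-fold lower in leukemic WT arrays (-1.47 ± 0.55 SE, adjusted p = 0.0384). Without preleukemic WT array 2 the WT difference of Fos was -0.68 (adjusted p = 0.347).

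The FOS-related proteins encoded by Fosl1 and Fosl2 lack the strong activation domain of FOS and FOSB. Fosl2 ran from 7.08 to 7.60 with a median of 7.29 in leukemic Pax5+/- mice, against 6.76 to 7.24 with a median of 7.04 in preleukemic Pax5+/- mice. It was 7.61, 7.37, 7.21 and 7.26 in leukemic WT mice, against 7.72, 7.10 and 7.19 in preleukemic WT mice. Fosl2 was thus the member that rose, by 0.29 ± 0.09 (SE) in Pax5+/- mice (1.22-fold, adjusted p = 0.0106), although the groups overlapped. In WT mice the difference was 0.02 with a 95% interval from -0.27 to 0.32 (adjusted p = 0.907). Fosl1 lay between 5.24 and 5.59 on all arrays, close to the dim level of 5.18 to 5.35, which is the 30th percentile of each array. Its differences of -0.06 in Pax5+/- and -0.04 in WT mice did not pass the test (adjusted p = 0.201 and 0.62).

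The JUN genes encode the partners through which FOS proteins reach DNA. Jund, the JUN gene known for steady expression in resting cells, ran from 8.01 to 8.84 with a median of 8.32 in leukemic Pax5+/- mice, against 10.62 to 11.39 with a median of 11.09 in preleukemic Pax5+/- mice. It was 7.64, 8.51, 8.38 and 8.33 in leukemic WT mice, against 9.86, 11.02 and 10.31 in preleukemic WT mice. In each genotype the gap between the stages was wider than the range within any of the 4 groups. Jund was 6.38-fold lower in leukemic Pax5+/- arrays (-2.67 ± 0.15 SE, adjusted p = 5.1e-12) and 4.53-fold lower in leukemic WT arrays (-2.18 ± 0.24 SE, adjusted p = 5.38e-07). Its calls held in all 35 alternatives tried, in both genotypes, with Pax5+/- differences from -2.82 to -2.58 and WT differences from -2.45 to -1.87. It was the only member whose WT call held without preleukemic WT array 2 (3.65-fold lower, adjusted p = 9.6e-06).

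Junb encodes a JUN protein that activates less strongly than JUN itself. Junb ran from 6.99 to 7.89 with a median of 7.29 in leukemic Pax5+/- mice, against 7.33 to 8.97 with a median of 8.58 in preleukemic Pax5+/- mice. It was 7.17, 7.38, 7.09 and 7.38 in leukemic WT mice, against 7.49, 8.91 and 7.58 in preleukemic WT mice. The groups overlapped only in Pax5+/- mice, where 5 of 7 preleukemic arrays lay above all leukemic ones. The Pax5+/- difference was -1.07 ± 0.23 (SE), 2.10-fold lower (adjusted p = 0.000369). The WT difference of -0.74 did not pass the test (adjusted p = 0.101).

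Jun, the main transforming partner of FOS, varied most among leukemic WT mice. Jun ran from 8.61 to 11.23 with a median of 9.77 in leukemic Pax5+/- mice, against 10.32 to 11.85 with a median of 11.47 in preleukemic Pax5+/- mice. It was 11.01, 9.43, 8.46 and 7.87 in leukemic WT mice, against 9.88, 11.65 and 10.40 in preleukemic WT mice. The stages overlapped in both genotypes, since leukemic Pax5+/- array 3 and leukemic WT array 1 reached preleukemic levels. Jun was 2.90-fold lower in leukemic Pax5+/- arrays (-1.53 ± 0.38 SE, adjusted p = 0.00157). The WT difference of -1.46 did not pass the test (adjusted p = 0.0555), and without leukemic WT array 1 it was -2.06 (adjusted p = 0.00455). Jun was highest on that array among leukemic WT arrays. Leaving it out makes the difference larger by construction and is no support for it. The SD of Jun in leukemic WT mice was 1.37, and 0.62% of tested genes had a larger SD there.

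Egr1 encodes the best known of the EGR proteins. It ran from 5.89 to 8.25 with a median of 6.76 in leukemic Pax5+/- mice, against 6.65 to 8.54 with a median of 8.11 in preleukemic Pax5+/- mice. It was 7.28, 6.50, 6.12 and 6.16 in leukemic WT mice, against 6.89, 8.65 and 7.29 in preleukemic WT mice. Leukemic arrays overlapped preleukemic ones in both genotypes, and leukemic Pax5+/- arrays 1, 2 and 3 had the highest leukemic values. Egr1 was 1.93-fold lower in leukemic Pax5+/- arrays (-0.95 ± 0.35 SE, adjusted p = 0.0226). The WT difference of -1.10 had a 95% interval from -2.23 to 0.03 (adjusted p = 0.112).

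Egr3, a relative known from lymphocyte activation, was 1.16-fold lower in leukemic Pax5+/- arrays (-0.21 ± 0.09 SE, adjusted p = 0.0495). It ran from 6.81 to 7.63 with a median of 6.94 in leukemic Pax5+/- mice, against 6.97 to 7.35 with a median of 7.22 in preleukemic Pax5+/- mice. Its WT values were 6.89, 7.06, 6.91 and 7.00 in leukemic mice, against 7.07, 7.49 and 7.34 in preleukemic mice, without overlap. The call of Egr3 was fragile, as it was lost in 27 of 35 alternatives, and the WT difference of -0.34 did not pass the test (adjusted p = 0.0647). Without leukemic Pax5+/- array 1, the highest leukemic array, the Pax5+/- adjusted p was 0.000516. Leaving out the highest leukemic array makes the difference larger by construction, so this value is no support for the call.

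Atf3, a stress-induced factor that represses or activates according to its partner, ran from 5.67 to 6.73 with a median of 5.72 in leukemic Pax5+/- mice, against 5.66 to 6.64 with a median of 6.45 in preleukemic Pax5+/- mice. It was 5.64, 5.90, 5.71 and 5.83 in leukemic WT mice, against 5.98, 6.85 and 5.86 in preleukemic WT mice. Its differences of -0.39 in Pax5+/- mice (adjusted p = 0.0513) and -0.46 in WT mice (adjusted p = 0.172) did not pass the test. The Pax5+/- difference passed in 9 of 35 alternatives, among them the fit without preleukemic Pax5+/- arrays 1 and 4 (-0.61, adjusted p = 0.00372). Atf3 was lowest on these arrays, so leaving them out makes the difference larger by construction and is no support for it.

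**Figure D2:**
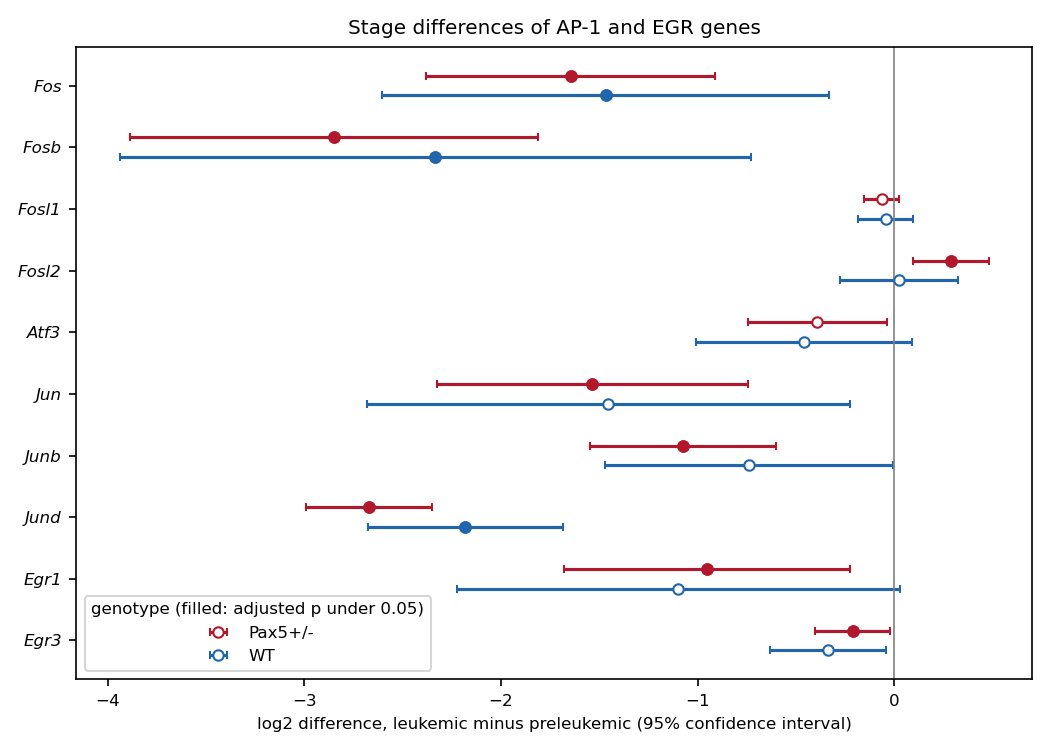
Log2 difference of leukemic minus preleukemic arrays (x axis) for each of the 10 genes (y axis), with 95% confidence intervals, Pax5+/- above WT. Filled points passed an adjusted p of 0.05. Intervals of the 2 genotypes overlap for every gene, and those of Fos, Fosb, Jun and Egr1 are wide beside that of Jund in Pax5+/- mice.

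Counting arrays without a fit, 2 members (Fosb and Jund) had all leukemic below all preleukemic Pax5+/- arrays, as did 10.5% of all genes tested. In WT mice 5 members (Fos, Fosb, Junb, Jund and Egr3) did so, against 20.4% of all genes tested. No member had all leukemic above all preleukemic arrays in either genotype, against 11.7% of genes in Pax5+/- and 18.9% in WT mice.

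The genotypes were also compared within each stage. Y-linked genes were high on 5 of 10 leukemic Pax5+/- against 0 of 4 leukemic WT arrays. They were high on 4 of 7 preleukemic Pax5+/- against 3 of 3 preleukemic WT arrays. Sex was thus unbalanced between genotypes, and preleukemic WT array 1 had a high granulocyte marker mean. These comparisons are therefore not of the loss of 1 Pax5 allele alone. For 0 of 10 members did the stage differences differ between genotypes in limma, none of them at an unadjusted p under 0.05, and 0.185% of all genes tested were called. The closest was Jund, whose Pax5+/- difference minus its WT difference was -0.49 with a 95% interval from -1.08 to 0.10 (adjusted p = 0.693). The intervals were wide for the most variable genes, from -2.43 to 1.39 for Fosb and from -1.53 to 1.18 for Fos. Between leukemic Pax5+/- and leukemic WT mice 0 of 10 members were called, none at an unadjusted p under 0.05, against 0.16% of all genes. The largest leukemic genotype difference was that of Jun, 0.59 with an interval from -0.36 to 1.55.

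In preleukemic mice 0 of 10 members were called between genotypes, 2 had an unadjusted p under 0.05, and 0.786% of all genes were called. These 2 were Jund, higher in preleukemic Pax5+/- mice by 0.66 (interval 0.21 to 1.11, adjusted p = 0.233), and Fosl2, with a difference of -0.32 (interval -0.59 to -0.05, adjusted p = 0.402). Without preleukemic WT array 2 the difference of Jund was 0.97 (adjusted p = 0.0402). Jund was highest on that array among preleukemic WT arrays. Leaving it out makes the difference larger by construction and is no support for it. Fosb averaged 9.11 ± 1.47 (SD, n = 7) in preleukemic Pax5+/- mice and 8.59 ± 2.20 (SD, n = 3) in preleukemic WT mice, so its genotype difference of 0.52 was smaller than either SD.

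The spread within the preleukemic groups was the other feature of these genes. In preleukemic Pax5+/- mice Fosb had an SD of 1.47, and 0.032% of the genes tested had a larger one. The SD of Fos was 1.02 (0.0895% of genes larger), that of Egr1 0.73 (0.294%) and that of Junb 0.65 (0.403%), against a median of 0.12 and a 95th percentile of 0.30 over all genes. Jun with 0.773%, Atf3 with 2.01% and Jund with 5.75% of genes above them followed. Fosl2, Egr3 and Fosl1 had ordinary SDs, with 31.2%, 43.4% and 55.2% of genes above them. In preleukemic WT mice the SD was 2.20 for Fosb and 1.37 for Fos, with 0.16% and 0.671% of genes above them.

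The same arrays were low for several members at once. On preleukemic Pax5+/- arrays 1 to 7 Fosb was 7.32, 10.21, 9.79, 6.91, 9.06, 10.85 and 9.65, so arrays 1 and 4 lay at least 1.74 below the other 5. Fos was 6.46, 8.48, 8.43, 6.32, 7.28, 8.90 and 7.95 on the same arrays, a gap of 0.81. Egr1 was 6.65, 8.11, 8.25, 7.10, 8.54, 8.10 and 8.48, a gap of 1.00. Arrays 1 and 4 were the lowest for 7 of the 10 members, the exceptions being Fosl1, Fosl2 and Egr3, and for 6.79% of all genes tested. In preleukemic WT mice array 2 was the highest for 9 of 10 members, all but Fosl2, and for 26.8% of all genes tested. It exceeded the next array by 3.68 for Fosb, 2.30 for Fos, 1.36 for Egr1 and 1.32 for Junb.

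**Figure D3:**
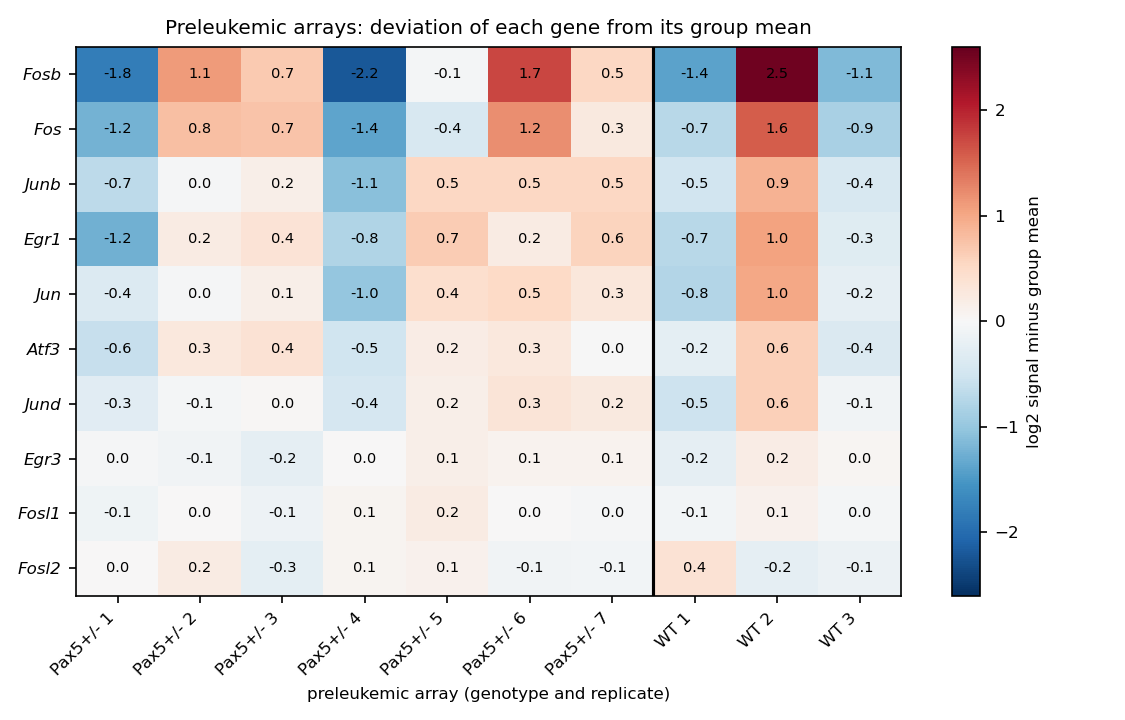
Deviation of each gene from its group mean (colour and printed value, log2) on the 7 preleukemic Pax5+/- and 3 preleukemic WT arrays. Arrays 1 and 4 of Pax5+/- mice and arrays 1 and 3 of WT mice lie below the mean for Fosb, Fos, Junb, Egr1, Jun, Atf3 and Jund together. Pax5+/- arrays 1 and 4 are not the lowest for Egr3, Fosl1 and Fosl2.

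Leaving out preleukemic Pax5+/- arrays 1 and 4, the lowest for 7 members, makes the stage differences of those members larger by construction. Without preleukemic Pax5+/- arrays 1 and 4 Fosb was 12.5-fold lower in leukemic Pax5+/- arrays (adjusted p = 5.27e-07), and Fos 4.48-fold, Jun 3.50-fold, Junb 2.69-fold and Egr1 2.56-fold lower. Jund changed less, at 7.05-fold lower in place of 6.38-fold. Of the 7 marker lists, only the erythroid one separated arrays 1 and 4 from the other 5, with means of 6.555 and 6.760, against 6.761 to 7.615 on the others, and its part in the spread was not tested. B-lineage markers averaged 11.70 and 11.84, against 11.52 to 11.88 on the others, and granulocyte markers 6.57 and 6.15, against 6.30 to 6.95. Monocyte and macrophage markers averaged 6.16 and 6.14, against 6.13 to 6.40. Heat-shock genes, another family induced by cell stress, were lower on both, with means of 9.06 and 9.10, against 9.34 to 9.81. They were also highest on preleukemic WT array 2, at 9.67, against 9.20 and 8.85 on the other preleukemic WT arrays. The part of cell stress in the spread was not tested.

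A list of 28 other immediate-early genes, 27 of them measured, was set beside the members. In Pax5+/- mice 19 of the 27 were lower and 1 higher in leukemic arrays, against 35.1% lower and 27.8% higher over all genes tested. Their median difference was -0.79. In WT mice 15 were lower and 0 higher, with a median of -0.98, against 20.4% lower and 18.7% higher over all genes tested. Without preleukemic WT array 2, 10 of the list were lower. The list was chosen with earlier results of these arrays known. Btg2, an antiproliferative p53 target, was 8.78-fold lower in leukemic Pax5+/- arrays, and its relative Btg1 4.26-fold lower. Zfp36, which promotes decay of AU-rich messenger RNAs, was 4.01-fold lower, and Klf2, a quiescence factor of lymphocytes, 3.73-fold lower. All 4 were also lower in WT mice. Arrays 1 and 4 were the lowest preleukemic Pax5+/- arrays for 21 of the 27 genes, against 6.79% of all genes tested. Array 2 was the highest preleukemic WT array for 24, against 26.8% of all genes tested. The mean over the 27 genes was 8.29 and 8.19 on preleukemic Pax5+/- arrays 1 and 4, against 8.75 to 9.18 on the other 5.

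**Figure D4:**
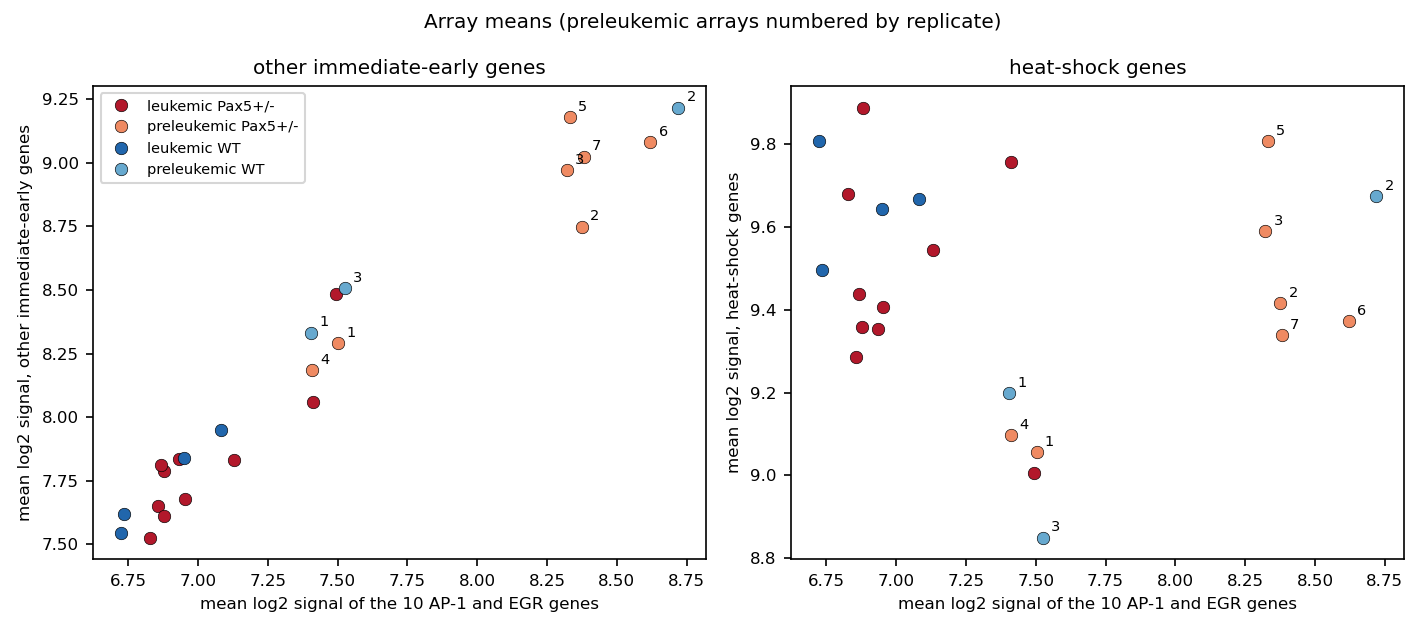
Mean log2 signal of the 27 other immediate-early genes (left panel, y axis) and of 9 heat-shock genes (right panel, y axis) against the mean of the 10 AP-1 and EGR genes (x axis), 1 point per array, with preleukemic arrays numbered by replicate. In the left panel preleukemic Pax5+/- arrays 1 and 4 and WT arrays 1 and 3 lie below the other preleukemic arrays on both axes, beside the highest leukemic arrays.

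The genes whose deviations from the group means were most like the members' mean deviation over the 24 arrays were Klf4, Skil, Ier2, Zfp36 and Birc3. Likeness was the root mean square difference, 0.138 for Klf4 and 0.214 to 0.222 for the other 4, against a median of 0.384 over all genes tested. Among the members it was 0.173 for Atf3, 0.177 for Junb, 0.275 for Jund, 0.319 for Egr3, 0.344 for Fosl1 and 0.382 for Fos. It was above the median of all genes for Fosl2 (0.403), Egr1 (0.457), Jun (0.569) and Fosb (0.678). Fosb varied more than the mean of the 10. The measure rises with the size of a gene's own changes, so a high value does not show that a member moved apart from the others. Each member is also part of the mean it is compared with. Klf4, Ier2 and Zfp36 stand in the immediate-early list, and Klf4 encodes a zinc-finger factor. On preleukemic Pax5+/- arrays 1 to 7 Klf4 was 5.85, 6.67, 6.84, 6.00, 6.86, 7.02 and 6.59, with the lowest values on arrays 1 and 4. It was 6.59, 7.84 and 6.59 on preleukemic WT arrays 1 to 3. Klf4 was picked for its likeness to the members on these same arrays, so this order follows in part from the choice.

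Other partners of AP-1 were called about as often as genes in general. Of 17 further bZIP genes tested, 3 were higher and 6 lower in leukemic Pax5+/- arrays, with a median difference of -0.05, against 27.8% higher and 35.1% lower over all genes tested. In WT mice 1 was higher and 3 were lower, against 18.7% and 20.4% over all genes. Jdp2, which represses AP-1 as a dimer with JUN, was 1.76-fold higher in leukemic Pax5+/- arrays (0.82 ± 0.19 SE, adjusted p = 0.000828), and all leukemic arrays lay above all preleukemic ones. Its WT difference was 0.35 (adjusted p = 0.351). Batf, which pairs with JUN in lymphocytes, was 1.59-fold higher in Pax5+/- and 1.67-fold higher in WT leukemic arrays. Atf4, the factor of the amino acid stress response, was 1.55-fold lower in both genotypes, and Atf6, a sensor of endoplasmic reticulum stress, was 1.33-fold lower in Pax5+/- mice. In WT mice the signal of Atf6 differed by -0.43, which did not pass the test (adjusted p = 0.0682).

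Around the EGR proteins, Nab1, a corepressor that binds EGR1 and is itself known to limit EGR activity, was 2.30-fold higher in leukemic Pax5+/- arrays (1.20 ± 0.12 SE, adjusted p = 1.51e-08). It ran from 8.23 to 9.30 in leukemic Pax5+/- mice, against 7.13 to 7.53 in preleukemic Pax5+/- mice, without overlap. In WT mice Nab1 was 8.34, 8.52, 8.48 and 8.34 in leukemic arrays, against 8.28, 7.75 and 7.78 in preleukemic arrays, a 1.40-fold higher signal (adjusted p = 0.037). Of the 5 genes of this list, Nab1 was higher and Egr4 lower in Pax5+/- mice, and only Nab1 was called in WT mice. Over all genes tested 27.8% were higher and 35.1% lower in Pax5+/- mice, and 18.7% and 20.4% in WT mice.

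Upstream of both families, 14 MAP kinase and serum response genes were tested, of which 4 were higher and 5 lower in leukemic Pax5+/- arrays, and 1 higher and 5 lower in leukemic WT arrays. Over all genes tested 27.8% were higher and 35.1% lower in leukemic Pax5+/- arrays, and 18.7% higher and 20.4% lower in leukemic WT arrays. Map2k6, a kinase of p38, was 2.37-fold lower in Pax5+/- and 2.40-fold lower in WT leukemic arrays. Mapk9, which encodes a JUN kinase, was 1.75-fold lower in Pax5+/- and 2.13-fold lower in WT leukemic arrays. Elk4, a partner of serum response factor at immediate-early promoters, was 1.54-fold lower in Pax5+/- and 1.90-fold lower in WT leukemic arrays. Mapk14, which encodes a p38 kinase, was 1.42-fold higher in Pax5+/- mice (adjusted p = 5.77e-05) and differed by 0.11 in WT mice (adjusted p = 0.561). The heat-shock list gave 3 higher and 3 lower of 9 genes in Pax5+/- mice, with Hspd1 2.25-fold higher and Hspa1a 1.70-fold lower. In WT mice 3 of the 9 were higher and 0 lower. There Hspd1 was 2.95-fold higher, and the Hspa1a difference of -0.57 did not pass the test (adjusted p = 0.248).

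Promoter sequences are shown because most members were low on the same preleukemic arrays and are known to be switched on through their start-site regions. RefSeq promoters of build GRCm38.p6, spanning 250 bases before to 50 after the gene start, were matched for 7 members (Fos, Fosb, Fosl2, Jun, Junb, Jund and Atf3). The letters TGACG, the core of the cyclic AMP response element that CREB and ATF proteins bind, were found on either strand in 4 of the 7, against 21.0% of all 27025 promoters. They are in capitals below (as CGTCA where the other strand holds them), each sequence running 5′ to 3′ on the gene's own strand. The windows were chr12:85473640-85473939 on the plus strand for Fos, chr7:19309996-19310295 on the minus strand for Fosb, chr8:84978699-84978998 on the minus strand for Junb, chr1:191183284-191183583 on the minus strand for Atf3 and chr5:32136222-32136521 on the plus strand for Fosl2. The Fosl2 promoter is shown as 1 of the 3 that hold none, beside those of Jun and Jund, so members without the letters include Jun and Jund, which fell, and Fosl2, which rose in Pax5+/- mice.
Fos: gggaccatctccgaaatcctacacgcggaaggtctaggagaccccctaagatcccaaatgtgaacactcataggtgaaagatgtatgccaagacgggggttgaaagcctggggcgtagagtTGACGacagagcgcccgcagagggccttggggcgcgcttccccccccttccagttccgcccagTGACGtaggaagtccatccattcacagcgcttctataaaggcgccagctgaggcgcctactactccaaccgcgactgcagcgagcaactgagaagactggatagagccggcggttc
Fosb: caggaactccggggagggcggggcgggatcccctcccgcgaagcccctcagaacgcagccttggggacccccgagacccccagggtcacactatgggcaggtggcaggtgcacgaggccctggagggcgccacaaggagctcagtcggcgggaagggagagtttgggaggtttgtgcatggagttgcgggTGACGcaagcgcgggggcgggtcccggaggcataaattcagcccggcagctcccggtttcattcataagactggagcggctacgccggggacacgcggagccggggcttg
Junb: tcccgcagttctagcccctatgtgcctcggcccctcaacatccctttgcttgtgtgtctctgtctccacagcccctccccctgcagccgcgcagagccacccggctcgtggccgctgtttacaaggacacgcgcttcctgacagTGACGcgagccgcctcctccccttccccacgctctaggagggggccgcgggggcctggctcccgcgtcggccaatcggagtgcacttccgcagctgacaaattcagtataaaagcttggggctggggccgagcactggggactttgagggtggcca
Atf3: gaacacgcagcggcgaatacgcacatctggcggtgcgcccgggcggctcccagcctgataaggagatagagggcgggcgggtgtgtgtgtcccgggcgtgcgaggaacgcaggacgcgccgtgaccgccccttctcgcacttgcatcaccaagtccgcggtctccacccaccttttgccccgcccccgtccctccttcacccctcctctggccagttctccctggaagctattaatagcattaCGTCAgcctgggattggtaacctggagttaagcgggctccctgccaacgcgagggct
Fosl2: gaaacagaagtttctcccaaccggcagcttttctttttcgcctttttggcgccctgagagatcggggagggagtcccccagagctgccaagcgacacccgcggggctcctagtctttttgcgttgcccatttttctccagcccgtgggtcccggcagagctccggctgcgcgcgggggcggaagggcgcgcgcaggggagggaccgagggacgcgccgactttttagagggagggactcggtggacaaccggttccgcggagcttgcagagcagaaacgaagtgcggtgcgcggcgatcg
Fos held TGACG at bases 122 to 126 and 185 to 189 of its window, counted from 1 at the 5′ end, Fosb at 191 to 195, Junb at 145 to 149 and Atf3 on the other strand at 244 to 248. TATAAA was found in Fos and Junb, at bases 218 to 223 and 251 to 256, and in 14.2% of all promoters on either strand. The AP-1 site TGACTCA, the full response element TGACGTCA, which contains TGACG, and the CArG box of serum response factor were found in 0 of the 7 windows, against 5.17%, 1.88% and 1.57% of all promoters. A match describes letters in this window and shows no binding. A count of 0 covers only these exact letters in these windows. Variant letters and sites outside the windows were not searched, and no window was matched for Egr1, Egr3 and Fosl1. It therefore does not show that these genes lack such sites.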

How the data were processed

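The authors deposited a table of log2 signals for 35556 probe sets. Per the submitters' processing notes, they used RMA and oligo. RMA corrects the background, applies quantile normalization and combines probes, which compresses differences near background. No version, batch or scan date was found in the labels. Values ran from 3.48 to 14.2 and array medians from 6.10 to 6.22 in leukemic and 6.23 to 6.30 in preleukemic arrays. The number of arrays limits the precision.

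Gene symbols came from the platform annotation, with 21789 probe sets with 1 symbol and 1621 with several. Probe sets with several named no gene, and a gene took its probe set with the highest mean. A gene was tested when it reached the 30th percentile of the array on at least 3 arrays. A group-means model over all 24 arrays was fitted in R 4.3.3 with limma 3.58.1 (lmFit, then eBayes on the contrasts), with 5 two-sided comparisons and Benjamini-Hochberg adjustment over the 15647 genes. All adjusted p-values in the text come from this fit or an alternative of it. The fit was tested on simulated data. The labels call samples biological replicates. The highest correlation between any pair of arrays was 0.994 and none were duplicates.

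The members and gene lists were chosen with earlier results of these data known. Named genes were all members, up to 4 called genes per list with the largest absolute Pax5+/- stage difference, and the 5 genes most like the members' mean deviation. Some listed genes were not analysed here. Alternatives were a trended and robust eBayes, only the groups compared, array weights, no or a stricter filter, centred arrays, repeated quantile normalization, all probe sets of a gene averaged, a replicate block, and leaving out arrays. Sex as a covariate and the counts of immediate-early genes without arrays were chosen after seeing the data.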

Additional observations from a re-analysis of the deposited data

Results flagged for a closer look

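In groups of 4 to 10 arrays, 3 of 30 sets of values had 1 array far from the others by Dixon's criterion, and chance alone gives about 1 in 20. Fosb was 6.429 on leukemic WT array 4, against a next value of 6.213, a difference of little size beside the preleukemic levels. Egr3 was 7.633 and Atf3 was 6.73 on leukemic Pax5+/- array 1, against next values of 7.049 and 6.207. This array also had the highest monocyte and macrophage marker mean of its group, 9.49, where the group median was 7.95, and its granulocyte marker mean was 10.44. The part of these markers in the values of Egr3 and Atf3 was not tested.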

How the results depend on the processing

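In the Pax5+/- stage comparison 5 to 8 members were lower and 1 was higher under all alternatives run. The calls of Fos, Fosb, Fosl2, Jun, Junb and Jund held in all 35, that of Egr1 in 32 and that of Egr3 in 8. The WT count of 3 lower members was less stable. It was 1 when only the groups compared were fitted and ranged from 1 to 6 when each array was left out in turn. Between preleukemic genotypes the count of called members ranged from 0 to 1 when each array was left out, the 1 being Jund without preleukemic WT array 2. Other immediate-early genes called lower ranged from 17 to 22 in Pax5+/- and from 10 to 17 in WT mice.

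Replicate numbers in the labels are shared between groups of different mice, and same-numbered arrays did not deviate together (correlations from -0.363 to 0.138), so the numbers are not a pairing. With the replicate number as a block, 1 member was lower in WT and 5 in Pax5+/- mice, where Egr1 (adjusted p = 0.0671) and Egr3 (adjusted p = 0.23) lost their calls. Genes called over all genes were 17 with the block against 29 for the difference of stage differences, 2 against 25 between leukemic genotypes and 56 against 123 between preleukemic genotypes. Between leukemic genotypes the count was 3 with sex as a covariate and 133 without leukemic WT array 3. With only the groups compared it was 1, and 249 between preleukemic genotypes. Repeated quantile normalization gave 4005 lower and 4752 higher genes in leukemic Pax5+/- arrays, and 2586 and 3196 in leukemic WT arrays. No called value changed sign, while 63 uncalled ones did. Fosl1 was not tested under the stricter filter. The causes were not tested.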

Other observations

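Among the genes most like the members across arrays, Skil and Birc3 stand in no list used here. Skil encodes a repressor of TGF-beta signalling, and Birc3 an inhibitor of apoptosis that NF-kB is known to induce. Skil was 2.46-fold lower in leukemic Pax5+/- arrays (adjusted p = 9.81e-08) and 2.77-fold lower in leukemic WT arrays (adjusted p = 2.58e-05). Birc3 was 2.69-fold lower in leukemic Pax5+/- arrays (adjusted p = 6.3e-08) and 3.22-fold lower in leukemic WT arrays (adjusted p = 1.1e-05). Skil was 8.23, 9.01 and 8.31 and Birc3 was 9.40, 10.46 and 9.85 on preleukemic WT arrays 1 to 3. Both genes were picked for their likeness to the members on these same arrays. That array 2 was the highest for both follows in part from the choice.

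Among leukemic Pax5+/- mice, arrays 1 and 3 had the highest mean deviation of the 10 members from their group means, 0.39 and 0.47. Array 3 was the highest leukemic Pax5+/- array for Fos, at 7.01, and for Jun, at 11.23. The mean of the other immediate-early genes was 8.06 on array 1 and 8.48 on array 3, where the group median was 7.80.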
